A study of Mus musculus with 41 samples.

Results

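The heat shock and chaperone genes described here are 10 genes chosen by name: *Hspa1a*, *Hspa1b*, *Hspa8* and *Hspa5* of the HSP70 family, the co-chaperones *Dnajb1* and *Hsph1*, *Hsp90aa1*, the small heat shock proteins *Hspb1* and *Cryab*, and the mitochondrial chaperonin *Hspd1*. They are 10 of the 43346 genes counted, and all 10 were among the 19292 genes that passed the filter on low counts. RNA was sequenced from the tibia diaphyses of 41 female *p16-INK-ATTAC* mice on a C57BL/6 background: 12 were young, 13 were old and received vehicle, and 16 were old and received AP20187 (AP). Every mouse, the young ones included, carried the *INK-ATTAC* transgene, in which a *p16Ink4a* promoter drives a caspase that AP activates, so that AP acts on cells in which that promoter is on and no group lacks the transgene. The old mice were injected from 20 months of age for 4 months, with vehicle or with AP at 10 mg per kg body mass, and were 24 months old at the end. The labels give the young mice 6 to 12 months and also mark them as vehicle, and the study's methods give 6 months. The bones had been centrifuged before RNA extraction, and the labels name no sequencing batch. Young and old mice carry separate runs of mouse numbers, and a sequencing batch and age therefore cannot be told apart.

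Total counts were 37028959 to 75942717 per mouse (median 47774880). Levels are given in CPM (counts scaled to library size) after TMM normalization, and changes as log2 fold changes from edgeR's quasi-likelihood fit of the 3 groups. A gene was called changed at a Benjamini-Hochberg adjusted p under 0.05 over all tested genes together with a log2 fold change above 0.5 or below -0.5. *Cdkn2a*, which encodes p16Ink4a, checked the age labels: it averaged 0.596 CPM in young, 2.78 in old + vehicle-treated and 1.75 in old + AP-treated mice. It was called between old + vehicle-treated and young mice (log2 fold change 2.22, SE 0.43, adjusted p = 0.000332), and its fall with AP was not called (-0.67, SE 0.37, adjusted p = 0.265). The defining genes of bone were present in every mouse, with summed osteoblast markers of 6900 to 89742 CPM and summed osteocyte markers of 329 to 3706 CPM. So were those of skeletal muscle, whose 16 markers summed to 23090 to 129175 CPM in young, 21309 to 176134 in old + vehicle-treated and 11409 to 132515 in old + AP-treated mice. These are bulk samples, in which fewer cells of a type and less RNA per cell cannot be told apart.

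Chaperones bind unfolded proteins and help them to fold, to stay soluble or to be passed on for degradation. In the cytosol, HSP70 proteins work in cycles that J-domain proteins start and nucleotide exchange factors end, HSP90 finishes the folding of kinases and receptors, and the ATP-independent small heat shock proteins hold unfolded clients. When unfolded proteins build up, heat shock factor 1 binds heat shock elements, inverted repeats of a short unit, in the promoters of the inducible genes. The endoplasmic reticulum (ER) has its own chaperones, led by BiP, the product of *Hspa5*, and its own response, in which ATF6 acts at ER stress response elements. Small heat shock proteins and αB-crystallin are abundant in striated muscle, where they bind proteins of the sarcomere.

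Promoters are shown for the 3 genes whose levels were called with age, and the ER element for contrast, since these are the sequences that the 2 responses read. Sequences are from RefSeq on GRCm38.p6, whose promoter table matched 7 of the 10 genes (*Hspa8*, *Hsp90aa1* and *Cryab* were not matched). The 250 bases before the start of transcription are printed 5′ to 3′ on the gene's strand, and capitals mark heat shock elements of 2 units (GAANNTTC or TTCNNGAA, searched on both strands). The *Hspa1a* sequence is chr17:34972157-34972406 and the *Hspa1b* sequence chr17:34959239-34959488, both on the minus strand, and the *Hspb1* sequence is chr5:135887669-135887918 on the plus strand.
Hspa1a: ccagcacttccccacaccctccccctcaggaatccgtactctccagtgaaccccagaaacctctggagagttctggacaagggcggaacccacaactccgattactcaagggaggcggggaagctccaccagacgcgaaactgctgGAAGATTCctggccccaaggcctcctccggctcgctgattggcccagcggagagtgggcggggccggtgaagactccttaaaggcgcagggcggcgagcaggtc
Hspa1b: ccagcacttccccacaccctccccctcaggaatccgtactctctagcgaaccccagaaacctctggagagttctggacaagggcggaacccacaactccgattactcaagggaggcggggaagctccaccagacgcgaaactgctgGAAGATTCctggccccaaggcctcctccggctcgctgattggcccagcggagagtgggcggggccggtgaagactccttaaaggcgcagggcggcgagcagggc
Hspb1: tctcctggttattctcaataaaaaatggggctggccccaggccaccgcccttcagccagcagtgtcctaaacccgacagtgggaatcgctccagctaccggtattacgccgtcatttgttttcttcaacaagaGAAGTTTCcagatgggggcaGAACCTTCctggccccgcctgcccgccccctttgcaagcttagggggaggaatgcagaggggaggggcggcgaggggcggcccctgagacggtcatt
*Hspa1a* and *Hspa1b* are neighbouring single-exon genes 9951 bases apart, and their 250 bases differed at 3 positions. Both held 1 element, from base -104 to base -97, where base -1 is the last before the start. *Hspb1* held 2 elements, from -117 to -110 and from -97 to -90. Elements of 2 units also stood in the promoters of *Hsph1* and *Hspd1*, so that 5 of the 7 matched genes had one in any of their listed promoters, against 17% of all 27025 genes, and 6 of their 10 promoters had one, against 15.1% of all 32851 promoters of this length (250 bases before to 50 after a start). Elements of 3 units, which overlap those of 2, stood in 2 of the 7 genes and in 0.662% of all genes. The longest run is that of *Hspd1*, at chr1:55088059-55088076 on the minus strand, before the second of the start sites listed for the gene.
Hspd1: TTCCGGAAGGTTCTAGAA
Hspa5: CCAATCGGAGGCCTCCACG
The *Hspa5* run is an ER stress response element at chr2:34772025-34772043 on the plus strand, from -65 to -47, a motif found in 0.119% of all promoters. No 2-unit heat shock element was found in the windows of *Hspa5* or *Dnajb1*. These matches describe the letters only, and binding was not measured.

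Per kilobase of gene length, the 41-mouse mean levels ran from 852 CPM per kb for *Cryab* (αB-crystallin) through 251 for *Hspa8* (the constitutive cytosolic HSP70) and 112 for *Hspa5* to 11.2 for *Hsph1*. The inducible genes *Hspa1a* and *Hspa1b* were lowest, at 1.60 and 1.14 CPM per kb, from 77 to 444 and from 51 to 287 counts per mouse. Some of these counts are uncertain because of near-identical copies. Of the 50-base windows of the longest *Hspa1a* transcript (GENCODE M21), 66.3% also occurred in transcripts of other genes, mainly *Hspa1b*. This share was 62.3% for *Hspa1b*, 74.8% for *Hspa8*, 58.5% for *Hsp90aa1*, 51.6% for *Hspb1* (the pseudogene *Hsp25-ps1*), 44.8% for *Hspd1*, 19% for *Cryab* (the overlapping *Hspb2*), 0.441% for *Dnajb1*, and 0% for *Hspa5* and *Hsph1*. The counting setting for such reads, and for strand, is not given in the sources used here.

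**Figure D1:**
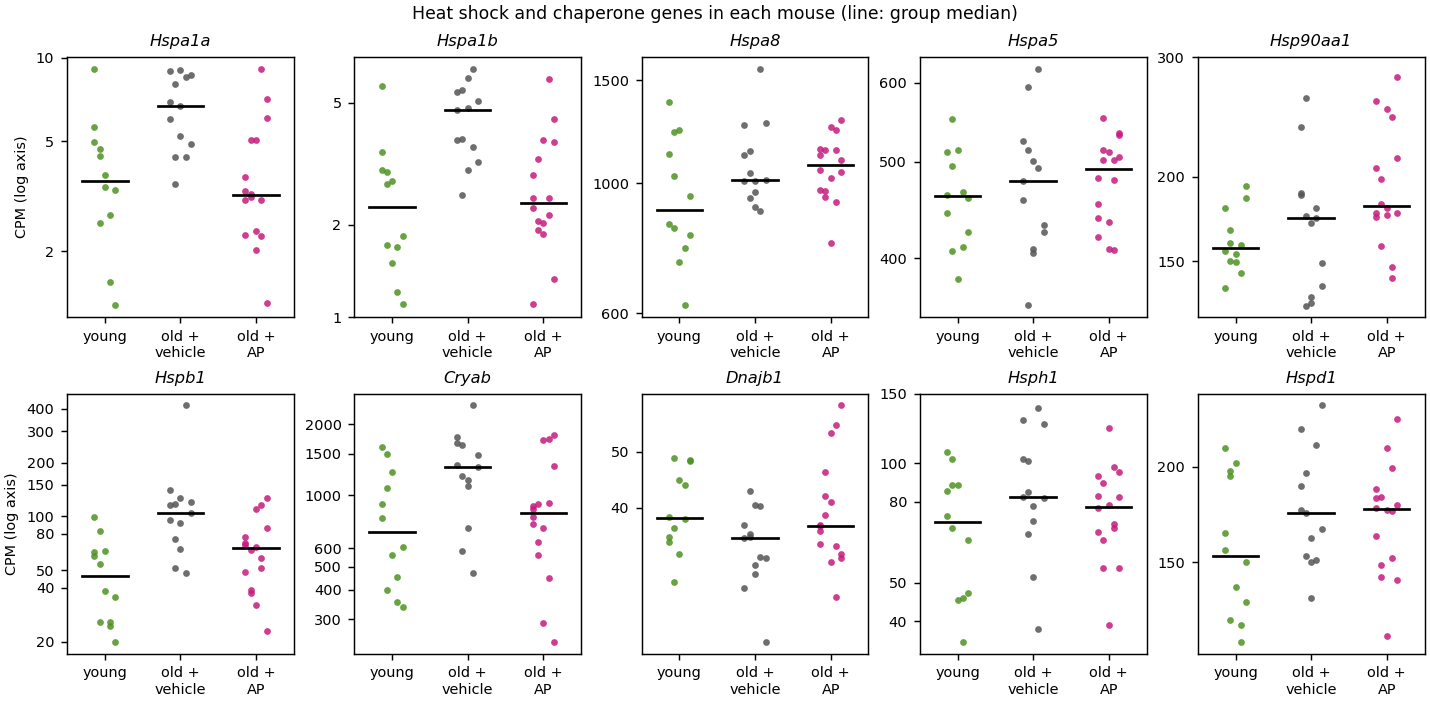
Level of each of the 10 genes in CPM (log axis) in every mouse, by group (12 young, 13 old + vehicle-treated, 16 old + AP-treated), with the group median as a line. *Hspa1a*, *Hspa1b* and *Hspb1* have their highest median in old + vehicle-treated mice, at 6.72, 4.73 and 105 CPM, while the *Hspa5* medians stay between 461 and 492 CPM.

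Old + vehicle-treated mice were compared with young mice to ask which of these genes differ with age. The inducible HSP70 genes *Hspa1a* and *Hspa1b* and the small heat shock protein gene *Hspb1* were higher in the old mice, by 1.66-fold, 1.80-fold and 2.44-fold. They were 3 of the 10 genes called higher, and 0 were called lower. Of all 19292 tested genes, 4.3% were called higher and 9.06% were called in either direction. Over the 10 genes the log2 fold changes had a median of 0.25, against 0.01 for all tested genes, and 9 of the 10 values were positive.

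*Hspa1b*, one of the 2 copies of the stress-inducible HSP70, lay between 1.10 and 5.68 CPM in young mice (median 2.28) and between 2.50 and 6.46 CPM in old + vehicle-treated mice (median 4.73). All 13 old + vehicle-treated mice exceeded the young median and 2 exceeded every young mouse, so that the ranges overlapped over most of the old group. The log2 fold change was 0.85 (SE 0.23), with an edgeR adjusted p = 0.00859. *Hspa1a*, the other copy, ranged from 1.28 to 9.11 CPM in young mice (median 3.59) and from 3.51 to 9.05 CPM in old + vehicle-treated mice (median 6.72). Its ranges overlapped fully at the top, since young mouse JF40 (9.11 CPM) stood above all old + vehicle-treated mice, while 6 of 12 young mice stood below all of them. The log2 fold change was 0.73 (SE 0.26, edgeR adjusted p = 0.0424), a call that was lost in 14 of 25 fits that left out 1 mouse (adjusted p 0.0513 to 0.078, log2 fold change 0.64 to 0.73). Those mice were JF1, JF8, JF15, JF16, JF21, JF22 and JF23 among the old and JF32, JF33, JF34, JF37, JF38, JF39 and JF41 among the young, and the call was also lost without the filter on low counts (adjusted p = 0.0616).

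*Hspb1*, which encodes the small heat shock protein HSP25, lay between 19.9 and 99.8 CPM in young mice (median 46.4) and between 48.5 and 417 CPM in old + vehicle-treated mice (median 105). All 13 old + vehicle-treated mice exceeded the young median, and 7 exceeded every young mouse. The old + vehicle-treated mouse JF16 stood apart at 417 CPM, with the next mouse of its group at 139.7 CPM. The log2 fold change was 1.29 (SE 0.30, edgeR adjusted p = 0.00206), and it was 0.96 without JF16 (adjusted p = 0.00846). *Cryab*, the other small heat shock protein, ranged from 340 to 1605 CPM in young mice (median 703) and from 472 to 2395 CPM in old + vehicle-treated mice (median 1321). JF16 was again the highest mouse, and 11 of 13 old + vehicle-treated mice exceeded the young median. Its estimate of 0.66 (SE 0.30) did not pass (edgeR adjusted p = 0.115).

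The other 6 genes did not pass and had smaller estimates. *Hspa8* had medians of 902 and 1012 CPM in young and old + vehicle-treated mice (log2 fold change 0.17, SE 0.11, edgeR adjusted p = 0.261), and 12 of 13 old + vehicle-treated mice exceeded the young median. *Hspa5*, the ER member of the family, had medians of 461 and 478 CPM (0.05, SE 0.08, adjusted p = 0.679). The ranges of both genes overlapped widely between the groups. *Hsph1*, a nucleotide exchange factor of the HSP110 family, had medians of 71.1 and 82.3 CPM (0.32, SE 0.18, adjusted p = 0.222). *Dnajb1*, the J-domain partner of HSP70, was the only one with a negative estimate, with medians of 38.4 and 35.4 CPM (-0.21, SE 0.10, adjusted p = 0.152). For *Hsp90aa1*, the inducible cytosolic HSP90, the medians were 157 and 174 CPM (0.10, SE 0.11, adjusted p = 0.543). For *Hspd1*, which encodes the mitochondrial HSP60, they were 153 and 174 CPM (0.17, SE 0.10, adjusted p = 0.278). In old + vehicle-treated mice *Hsp90aa1* spanned 129 to 261 CPM, which took in the whole young range of 137 to 194 CPM.

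Old + AP-treated mice were compared with old + vehicle-treated mice, the comparison that asks what changed when cells with an active *p16Ink4a* promoter were targeted. The estimates for *Hspa1a*, *Hspa1b* and *Hspb1* were negative, at -0.76, -0.70 and -0.84, but 0 of the 10 genes were called by edgeR. Of all tested genes, 0.0726% were called. At an unadjusted p under 0.05 there were 4 of the 10 genes, *Dnajb1* being the fourth, and 23.9% of all tested genes. This comparison shares its old + vehicle-treated mice with the one above, so that estimates of opposite sign are not independent of each other.

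*Hspa1a* lay between 1.30 and 9.13 CPM in old + AP-treated mice (median 3.19), and 14 of 16 were below the old + vehicle-treated median of 6.72 CPM. Below every old + vehicle-treated mouse were 10 of the 16, while JF9 (9.13 CPM) was above all of them. The log2 fold change was -0.76 (SE 0.24, edgeR adjusted p = 0.0761). *Hspa1b* lay between 1.10 and 5.98 CPM (median 2.36), with 15 of 16 below the old + vehicle-treated median and 10 of 16 below every old + vehicle-treated mouse (-0.70, SE 0.22, edgeR adjusted p = 0.0704). *Hspb1* lay between 22.8 and 127 CPM (median 66.3), with 13 of 16 below the old + vehicle-treated median and 4 of 16 below every mouse of that group (-0.84, SE 0.27, edgeR adjusted p = 0.0792).

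These 3 genes stood near the threshold. DESeq2 called all of them lower, with adjusted p = 0.0415 for *Hspa1a*, 0.0364 for *Hspa1b* and 0.0427 for *Hspb1*, where it called 1.3% of the 16673 genes it gave an adjusted p. In the edgeR fit *Hspa1a* and *Hspa1b* were called without the vehicle-treated mouse JF2 (log2 fold changes -0.79 and -0.72, adjusted p = 0.0456 and 0.0443), without the AP-treated mouse JF9 (-0.89 and -0.82, adjusted p = 0.0221 and 0.0199) and without the AP-treated mouse JF10 (-0.81 and -0.74, adjusted p = 0.048 and 0.0465). *Hspb1* was called without JF2 (-0.88, adjusted p = 0.0482) or JF9 (-0.91, adjusted p = 0.0378). Of all genes 1.62% were called without JF2, 2.1% without JF9 and 1.25% without JF10. Without JF16 its log2 fold change was -0.51 (adjusted p = 0.243).

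Among the other genes, *Cryab* had a median of 841 CPM in old + AP-treated mice, from 241 to 1794 CPM (-0.50, SE 0.27, edgeR adjusted p = 0.252). *Dnajb1* ranged from 28.1 to 60.1 CPM (median 37.3), and its estimate was positive (0.22, SE 0.10, adjusted p = 0.168). *Hsp90aa1* ranged from 142 to 280 CPM (median 181) and also had a positive estimate (0.19, SE 0.10, adjusted p = 0.240). The 4 AP-treated mice highest in *Dnajb1* exceeded every old + vehicle-treated mouse, and the single highest in *Hsp90aa1* did so. *Hsph1* (-0.20, SE 0.17), *Hspd1* (-0.05, SE 0.10), *Hspa8* (-0.02, SE 0.10) and *Hspa5* (0.01, SE 0.07) had adjusted p values of 0.472 to 0.961, and for the last 3 the estimate was smaller than its SE.

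Old + AP-treated mice were also set beside young mice, which share neither age nor drug with them. None of the 10 genes was called (0 of 10), against 8.58% of all tested genes, and 1 of the 10 had an unadjusted p under 0.05 against 32.2%. That gene was *Hsp90aa1*, with 137 to 194 CPM in young mice (log2 fold change 0.30, SE 0.10, edgeR adjusted p = 0.0426), which fell short of the fold-change threshold. DESeq2 likewise called 0 of the 10, against 9.42% of all genes. The medians of *Hspa1a* (3.59 and 3.19 CPM) and *Hspa1b* (2.28 and 2.36 CPM) in young and old + AP-treated mice lay within 0.5 CPM of each other, with log2 fold changes of -0.02 (SE 0.25) and 0.15 (SE 0.22). *Hspb1* remained at a positive estimate of 0.45 (SE 0.28, adjusted p = 0.276).

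Levels of skeletal muscle markers and of immediate early genes were set beside these genes. Of the 16 skeletal muscle markers, of which the sarcoplasmic calcium pump gene *Atp2a1* was the most abundant, 2 were called higher in old + vehicle-treated than in young mice, 15 of 16 had a positive value and the median log2 fold change was 0.38. With AP, 0 were called, 16 of 16 values were negative and the median was -0.45. Median summed levels were 58451 CPM in young, 94095 in old + vehicle-treated and 66840 in old + AP-treated mice. Of 17 immediate early genes, which respond within minutes to stimuli and to handling of tissue, 8 were called higher in old + vehicle-treated than in young mice (median 0.51), and 0 were called with AP (median -0.29). Their summed level was 532 to 751 CPM in young (median 573), 538 to 1019 in old + vehicle-treated (median 783) and 519 to 1041 in old + AP-treated mice (median 639), with JF16 the highest of the vehicle-treated mice. None of the genes of either list was at 0 in any mouse.

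With a muscle score (the mean z-score of the 16 markers) as a covariate in the fit, the 3 age calls were kept, with log2 fold changes of 0.59 for *Hspa1a* (edgeR adjusted p = 0.0128), 0.73 for *Hspa1b* (adjusted p = 0.00275) and 1.05 for *Hspb1* (adjusted p = 1e-04). Of all genes, 4.63% were called higher with age in that fit and 9.41% in either direction. *Cryab* had 0.43 (adjusted p = 0.0214), under the fold-change threshold. In the comparison of AP with vehicle the same covariate left *Hspb1* at -0.49 (adjusted p = 0.144), *Cryab* at -0.19 (adjusted p = 0.445), *Hspa1a* at -0.57 (adjusted p = 0.0929) and *Hspa1b* at -0.53 (adjusted p = 0.106). Between old + AP-treated and young mice it gave 1 call among the 10 genes, *Hspb1* (0.56, SE 0.18, adjusted p = 0.0194), against 10.2% of all genes called in that fit. With an immediate early score as the covariate, the age calls of *Hspa1a* (0.60, SE 0.30, adjusted p = 0.169) and *Hspa1b* (0.69, SE 0.26, adjusted p = 0.0649) were lost and that of *Hspb1* was kept (1.03, SE 0.34, adjusted p = 0.0309). With this score, 3.71% of all genes were called higher with age and 9.27% in either direction. That score itself differed between the groups, with a mean of -0.38 in young and 0.38 in old + vehicle-treated mice, and the part of handling in these results was not tested.

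**Figure D2:**
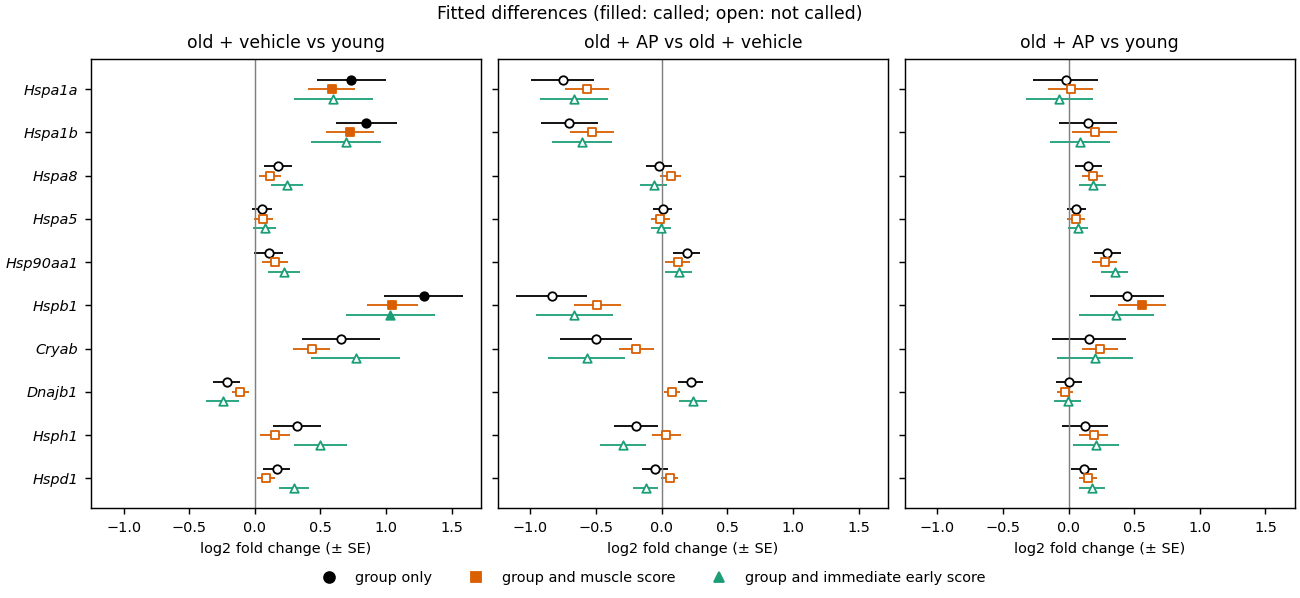
Log2 fold changes (x axis, bars are the SE) of the 10 genes in the 3 comparisons, fitted with group alone, with the muscle score or with the immediate early score as a covariate; filled symbols were called. *Hspb1* is filled in all 3 fits of old + vehicle-treated against young mice (1.29, 1.05 and 1.03), and no symbol is filled for AP against vehicle.

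From mouse to mouse, the 10 genes differed in how much they varied. The SD of log2 CPM within groups was 0.78 for *Cryab*, 0.74 for *Hspb1*, 0.67 for *Hspa1a* and 0.58 for *Hspa1b*, and 77% to 90.2% of all tested genes had a smaller SD. It was 0.18 for *Hspa5*, with 17.4% of genes below it, and 0.25 to 0.27 for *Hspa8*, *Hspd1*, *Dnajb1* and *Hsp90aa1*, against a median of 0.37 over all genes. *Hsph1* lay between, at 0.48. Whether mice of one group varied more than those of another was tested for the 10 genes in the 3 comparisons by permutation (100000 resamples), and 0 of the 30 differences had an adjusted p under 0.05. The smallest unadjusted permutation p was 0.0133, for *Hspa8*, whose mean absolute deviation from the group median was 0.14 in old + AP-treated and 0.29 in young mice (adjusted p = 0.4).

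After the group means were removed, 7 of the genes rose and fell together across the 41 mice. Of the 45 pairs, 24 were positively and 8 negatively correlated at a Benjamini-Hochberg adjusted permutation p under 0.05, with a median Pearson r of 0.47. *Hspb1* and *Cryab* had r = 0.91 (Spearman rho 0.91, permutation p = 1e-05 for r, the smallest that 100000 resamples can give), and r was 0.93 without the 2 mice farthest from the median and 0.85 to 0.97 within the groups. *Hsph1* and *Hspd1*, of the cytosol and the mitochondria, had r = 0.88 (rho 0.90, 0.89 without 2 mice, 0.86 to 0.90 within groups, permutation p = 1e-05). *Hspa1a* and *Hspa1b*, which share much of their sequence, had r = 0.92 (rho 0.90, 0.90 without 2 mice, 0.90 to 0.95 within groups, permutation p = 1e-05).

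*Dnajb1* ran against this block, with r from -0.33 (*Hspa8*) to -0.73 (*Cryab*; rho -0.76, -0.67 without 2 mice, -0.84 to -0.44 within groups, permutation p = 1e-05). It rose with *Hsp90aa1* (r = 0.57, rho 0.51, 0.47 without 2 mice, 0.42 to 0.69 within groups, permutation p = 0.00013). *Hspa5* followed *Hsp90aa1* (r = 0.53, rho 0.50, 0.51 without 2 mice, permutation p = 0.00025), though r was 0.81 in old + vehicle-treated, 0.14 in young and 0.36 in old + AP-treated mice. It also rose with *Hspa8* (r = 0.43, rho 0.37, 0.36 without 2 mice, permutation p = 0.00544, adjusted p = 0.00816 over 45 pairs), with r = 0.74 in young, 0.42 in old + vehicle-treated and 0.05 in old + AP-treated mice. Its r with *Hspb1* was 0.01 and with *Cryab* 0.00.

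The same split appeared against the muscle score. In mice with a high score, *Cryab* was high (r = 0.89, rho 0.87, 0.86 without 2 mice, 0.82 to 0.95 within groups, permutation p = 1e-05), as were *Hsph1* (r = 0.80), *Hspb1* (r = 0.79), *Hspd1* (r = 0.77), *Hspa1a* (r = 0.73), *Hspa8* and *Hspa1b* (r = 0.60 each). *Dnajb1* was low (r = -0.81, rho -0.81, -0.79 without 2 mice, -0.87 to -0.74 within groups, permutation p = 1e-05), and *Hsp90aa1* had r = -0.41. *Hspa5* had r = -0.18 (permutation p = 0.264). In all, 7 of the 10 genes were positively and 2 negatively correlated with the muscle score at an adjusted p under 0.05 over the 40 relations with 4 marker scores. The old + AP-treated mouse JF19, lowest in the muscle score (-2.65), was also lowest in *Cryab* (241 CPM) and highest in *Dnajb1* (60.1 CPM) of the 41 mice. JF19 was lowest in the osteocyte (-2.71) and endothelial marker scores (-1.88) as well, and highest in the neutrophil marker score (2.20).

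**Figure D3:**
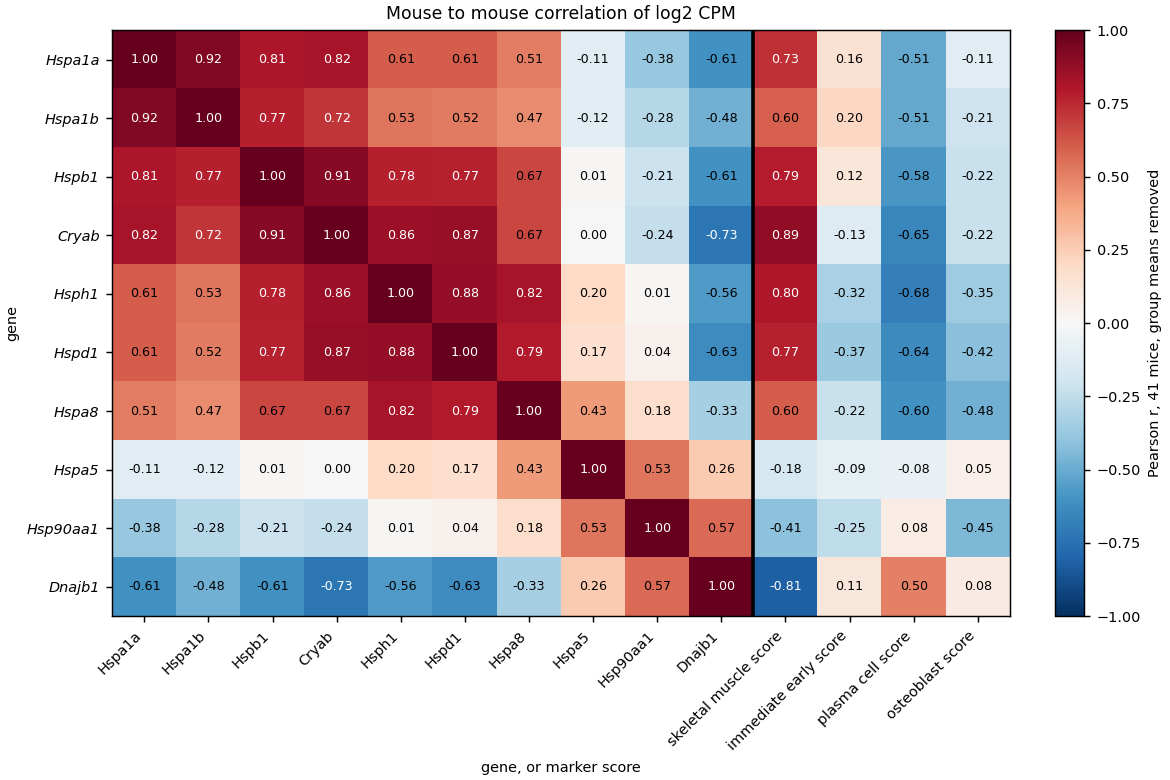
Pearson r of log2 CPM between the 10 genes, and between each gene and 4 marker scores right of the line, over 41 mice with group means removed. From *Hspa1a* to *Hspa8*, 7 genes form a positive block that also has an r of 0.60 to 0.89 with the muscle score, while *Dnajb1* is negative to both.

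**Figure D4:**
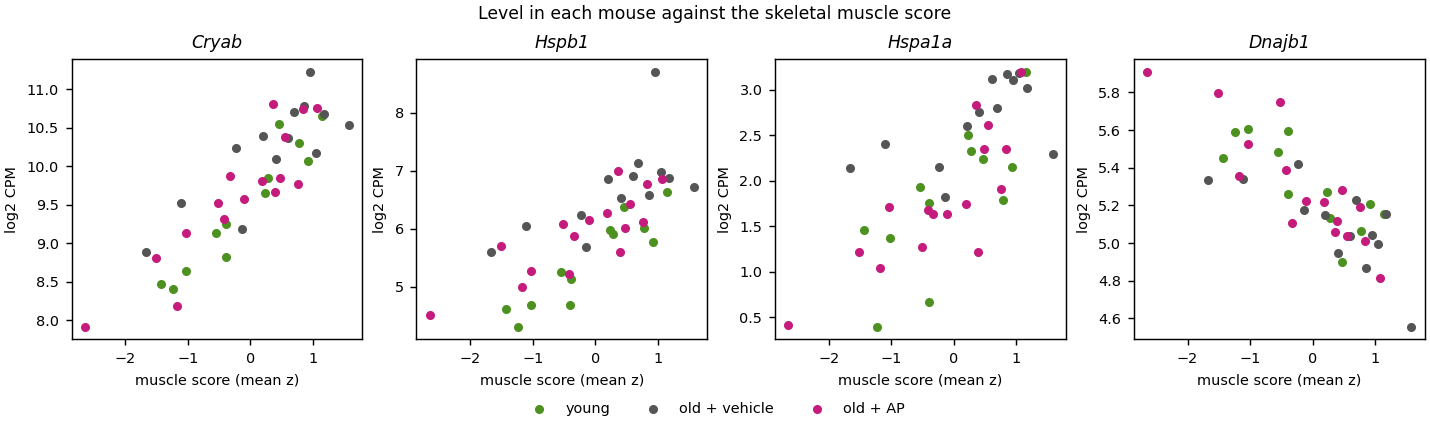
Log2 CPM of 4 of the genes (y axis) against the skeletal muscle score (x axis, mean z-score of 16 markers) in each of the 41 mice, coloured by group. *Cryab*, *Hspb1* and *Hspa1a* rise with the score (r = 0.89, 0.79 and 0.73 with group means removed), and *Dnajb1* falls (r = -0.81).

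The genes most like a given one were sought among 15531 genes with a mean of at least 1 CPM, by Pearson r over the 41 mice with group means removed. Closest to *Hspa1a* were *Bag3* (r = 0.88), an HSP70 co-chaperone of selective autophagy, the sarcomere gene *Tcap* (r = 0.88), *Mn1* (r = 0.87), *Adamtsl4* (r = 0.87) and *Wfs1* (r = 0.86). Closest to *Cryab* were the small heat shock protein gene *Hspb6* (r = 0.97), *Lrrc2* (r = 0.96), *Lmcd1* (r = 0.95), *Fhl1* (r = 0.95) and *Trim72* (r = 0.95), the last of which acts in repair of the muscle membrane. The nearest to *Hspa5* were ER genes: *Hyou1* (r = 0.78), *Pdia4* (r = 0.77), *Hsp90b1* (r = 0.77), *Canx* (r = 0.75) and *Manf* (r = 0.74). These values were chosen as the highest and carry no test.

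Of 147 further chaperone and unfolded protein response genes in 9 lists, 144 were tested. In old + vehicle-treated mice 11 of them were called higher than in young mice and 0 lower, against 4.3% higher and 9.06% in either direction for all genes, and their median log2 fold change was 0.10 (0.01 for all genes). Positive values were found for 106 of the 144. The largest were those of 2 small heat shock protein genes, *Hspb7* (1.54, SE 0.35, edgeR adjusted p = 0.00159) and *Hspb8*, the partner of *Bag3* (1.20, SE 0.32, adjusted p = 0.00701). *Hspb7* lay between 109 and 794 CPM in young mice (median 306) and between 311 and 2630 CPM in old + vehicle-treated mice (median 1003), with 8 of 13 old mice above every young mouse. The other 4 tested genes of that list were not called, and the list's median was 0.59.

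Around HSP70 and HSP90, *Bag3* (0.80, SE 0.21, edgeR adjusted p = 0.0049), *Bag6* (0.53, SE 0.07, adjusted p = 5.79e-06), the constitutive HSP90 gene *Hsp90ab1* (0.51, SE 0.10, adjusted p = 0.000417) and the glucocorticoid-induced immunophilin gene *Fkbp5* (0.82, SE 0.16, adjusted p = 3e-04) were called higher. *Bag6*, whose product guards newly made membrane proteins, lay between 114 and 166 CPM in young and between 159 and 279 CPM in old + vehicle-treated mice, and 12 of the 13 old mice exceeded every young mouse. Of the heat shock factors, *Hsf4* was called (0.74, SE 0.17, adjusted p = 0.00206), and *Hsf1*, named here after its values had been seen, averaged 38.3 CPM in young and 50.4 CPM in old + vehicle-treated mice (0.40, SE 0.08, adjusted p = 0.000369), under the fold-change threshold. None of the 19 J-domain genes and none of the 15 chaperonin and prefoldin genes was called (0 of each, with 9 and 3 at an unadjusted p under 0.05, against 31.8% of all tested genes). Of 17 mitochondrial genes 1 was called, the disaggregase gene *Clpb* (0.54, SE 0.19, adjusted p = 0.0365). Without the old + vehicle-treated mouse JF16, the calls of *Bag6* (0.48, adjusted p = 8.77e-06), *Hsp90ab1* (0.46, adjusted p = 0.000958) and *Clpb* (0.49, adjusted p = 0.0693) were lost. *Bag6* also fell just under the fold-change threshold without JF23 (0.50). *Hsp90ab1* lost it without any 1 of 7 mice (JF16, JF20, JF32, JF33, JF38, JF39 and JF41; 0.46 to just under 0.50), by the fold-change threshold, and *Clpb* without any 1 of 11 (JF16, JF20 to JF23, JF33 to JF35, JF38, JF39 and JF41; adjusted p from 0.0514 to 0.0717). The number of network genes called with age was 9 to 14 with 1 mouse left out, against 7.75% to 10.2% of all genes. Calls were also gained in these fits, all named after their values had been seen. *Spg7*, a mitochondrial protease gene just under the fold-change threshold with all mice (0.50, SE 0.11, edgeR adjusted p = 0.0018), was gained in 13 of 25 (0.50 to 0.55). *Fkbp14* was gained as lower in 2 (-0.56 without JF16, -0.51 without JF39), and *Dnaja4*, *Hspa1l* and *Hspb6* as higher in 1 each. DESeq2, its size factors and the model of 2 groups called *Spg7* too.

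In the ER lists, 1 of 28 chaperones and folding enzymes, *Sdf2l1* (0.58, SE 0.14, edgeR adjusted p = 0.00324), and 2 of 22 response regulators were called higher with age, against 4.3% of all genes. Those were *Trib3*, a pseudokinase induced in ER stress (0.89, SE 0.19, adjusted p = 0.000873), and *Derl3*, of ER-associated degradation (0.89, SE 0.28, adjusted p = 0.0226). *Trib3* was low in all mice, at 1.15 to 2.59 CPM in young and 2.56 to 4.30 CPM in old + vehicle-treated mice, and 11 of 13 old mice exceeded every young mouse. With the muscle score as a covariate, 10 network genes were called, all 10 higher, against 4.63% of all genes higher and 9.41% in either direction in the same fit. There 3 of the 11 calls fell under the fold-change threshold (*Bag6*, *Hsp90ab1* and *Clpb*), and 2 were gained, *Dnajc6* (0.55, edgeR adjusted p = 0.031) and *Hspb6* (0.53, adjusted p = 0.00556). With the immediate early score 15 were called, 12 of them higher, against 3.71% of all genes higher and 9.27% in either direction. In that fit 2 calls were lost, *Bag6* by its fold change and *Derl3* (adjusted p = 0.143), and 6 were gained, of which *Dnaja4* (0.77), *Dnajc21* (0.58) and *Spg7* (0.54) were higher and *Serpinh1* (-0.90), *Fkbp10* (-0.84) and *Fkbp14* (-0.69) lower. The genes gained with either covariate are named after their values had been seen. With each mouse left out in turn, *Derl3* lost its call without JF13 (0.71, adjusted p = 0.0613).

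**Figure D5:**
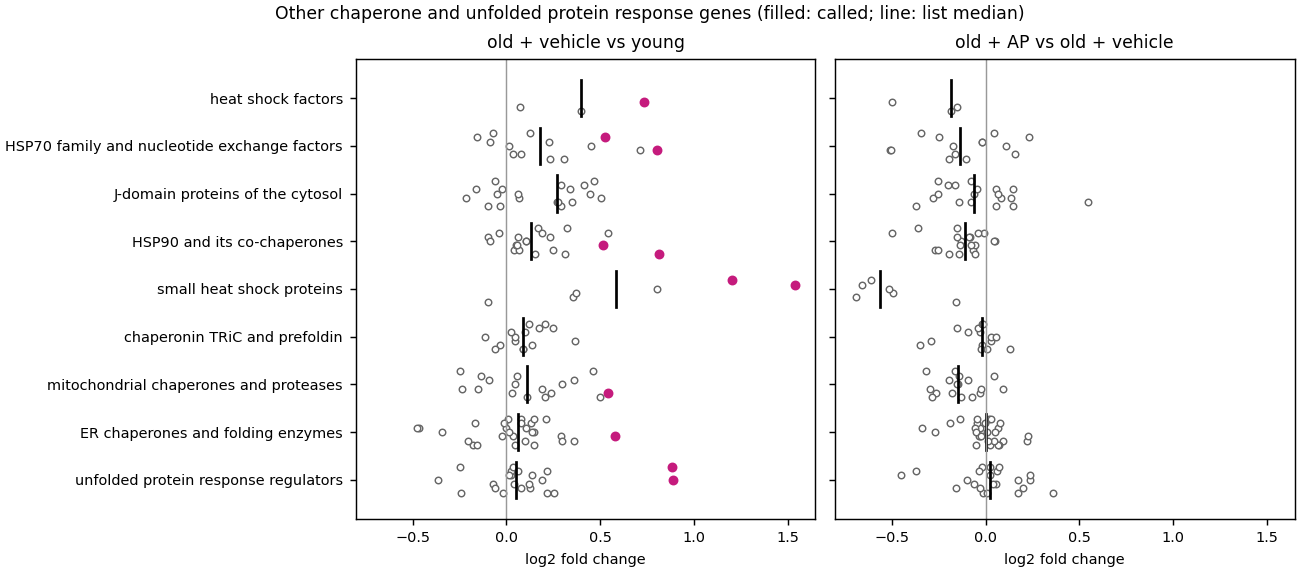
Log2 fold change (x axis) of the 144 tested genes of the 9 lists, for age (old + vehicle-treated against young mice) and for AP (against vehicle, in old mice); filled points were called and the line is the list's median. The small heat shock proteins have the highest list median with age (0.59) and the lowest with AP (-0.56).

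With AP, 0 of the 144 genes were called by edgeR against old + vehicle-treated mice (0.0726% of all genes), 33 had an unadjusted p under 0.05 (23.9% of all genes), and the median was -0.05 (0.00 for all genes). All 6 tested small heat shock proteins had negative values, with a median of -0.56, and *Hspb7* had -0.66 (SE 0.31, adjusted p = 0.192) and *Hspb8* -0.61 (SE 0.29, adjusted p = 0.196). DESeq2, which called 1.3% of the genes it gave an adjusted p, called 1 of the 144 lower, *Hspb2* (named after its values had been seen), which overlaps *Cryab*. Left-out mice gave up to 3 calls, against 0% to 2.1% of all genes in these fits. They were *Hsf4* without JF2 or JF10, and *Bag3*, *Hsf4* and *Hspb2* without JF9.

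Between old + AP-treated and young mice, 7 of the 144 genes were called higher and 3 lower, against 8.58% called in either direction for all genes. The regulators *Trib3* (0.91, SE 0.18, edgeR adjusted p = 0.000578), *Derl3* (1.13, SE 0.27, adjusted p = 0.0039) and the asparagine synthetase gene *Asns* (0.61, SE 0.18, adjusted p = 0.0161) were higher, as were *Sdf2l1* (0.55), the ER oxidase gene *Ero1l* (0.51), *Fkbp5* (0.62) and the auxilin gene *Dnajc6* (0.90). Lower were *Serpinh1*, the collagen chaperone HSP47 (-0.81, SE 0.22, adjusted p = 0.00943), *Fkbp14*, an ER prolyl isomerase (-0.52, adjusted p = 0.0161), and the mitochondrial J-domain gene *Dnajc19* (-0.56, adjusted p = 0.00423). With the muscle score 12 genes were called, against 10.2% of all genes. There *Ero1l* fell under the fold-change threshold (0.47, edgeR adjusted p = 0.00223), and *Hspb7* (0.998, adjusted p = 0.000367), *Hspb8* (0.68, adjusted p = 0.000152) and *Fkbp10* (-0.61, adjusted p = 0.0375) were gained. With the immediate early score 11 were called, against 10.5% of all genes, and the gain was *Fkbp10* (-0.81, adjusted p = 0.00753). With 1 mouse left out, 8 to 12 were called, against 7.36% to 10% of all genes. Those fits gained *Hspb7* in 5 and *Fkbp10* in 4 of 28. These 3 gained genes are named after their values had been seen. *Ero1l* lost its call without any 1 of 9 mice (JF3, JF5, JF17, JF18, JF19, JF25, JF31, JF36 and JF40; 0.43 to just under 0.50), and *Fkbp14* without any 1 of 5 (JF19, JF24, JF28, JF36 and JF38; -0.49 to -0.47). *Asns* lost it without JF17 (just under 0.50), *Sdf2l1* without JF19 (0.49) and *Dnajc19* without JF40 (-0.45), each by the fold-change threshold. *Serpinh1* lay between 544 and 1133 CPM in young mice (median 799) and between 161 and 914 CPM in old + AP-treated mice (median 442), and 11 of 16 old + AP-treated mice were below every young mouse. Beside it, 6 of 10 osteoblast markers were called lower in the same comparison, with a median of -0.68, and their part in the *Serpinh1* result was not tested.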

How the data were processed

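RNA from the tibia diaphyses of 41 mice was sequenced on a HiSeq2000. The authors deposited raw read counts per gene on mm10 (GRCm38), without normalization, as 1 column per mouse, and the submitters' processing notes name TopHat2 2.0.6 and HTSeq. The annotation release, the strand setting and the handling of reads with several matches are not given in the sources used here. Groups came from the sample labels, which give the molecule as genomic DNA although the table holds RNA counts. Labels do not pair mice between groups. Within groups, the counts of any 2 mice differed by at least 33.1 times the counting variance (chi-square per degree of freedom, 264 pairs), so that each mouse was 1 replicate.

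In R 4.3.3 with edgeR 4.0.16, TMM factors, filterByExpr and a quasi-likelihood model of all 3 groups gave 3 comparisons, with Benjamini-Hochberg adjustment over 19292 genes. SEs are the log2 fold change divided by the root of the F statistic. The fold-change and p rule is that of the study's methods. Log2 CPM used a prior count of 2. DESeq2 1.42.0, its size factors, no filter (32309 genes), models of 2 groups, no fold-change threshold, 2 marker scores as covariates, a permutation test and each mouse left out in turn were alternatives. Correlations and spread were tested by two-sided permutation in Python 3.11.15 with NumPy 2.4.6. Scripts were tested on simulated data. Symbols that the table gives in older form were matched by identifier.

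The 10 genes are always named. Of each list, the called genes are named where a direction had 4 or fewer (otherwise the largest 2), and genes outside this rule are marked. The members and lists were chosen with earlier results of these data known. The result of 1 marker list is not reported here.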

Additional observations from a re-analysis of the deposited data

How the results depend on the processing

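Of 240 log2 fold changes of the 10 genes under the other settings, 228 kept their side of the call, 3 calls were lost and 9 were gained. Among values called in either fit, 0 reversed. Some values that were not called changed sign, such as *Hsph1* for AP against vehicle (-0.20 with group alone, 0.04 with the muscle score). With each mouse left out, 798 of 820 kept their side of the call. Here too values that were not called changed sign, such as *Hspa1a* between old + AP-treated and young mice (-0.16 to 0.16). The gains were 3 under DESeq2 and 4 in the permutation test of log2 CPM (unadjusted), 1 with the muscle score and 1 without the fold-change threshold. The number of the 10 genes called with age was 3, fell to 1 with the immediate early score (9.27% of all genes) and was 2 to 3 with a mouse left out (7.75% to 10.2%). For AP against vehicle it was 0, but 3 by DESeq2 (1.3% of the genes it gave an adjusted p). With a mouse left out it was 0 to 3 (0% to 2.1% of all genes). Between old + AP-treated and young mice it was 0, and 1 each without the fold-change threshold (*Hsp90aa1*; 17.8% of all genes) and with the muscle score (*Hspb1*; 10.2%). Of the 144 network genes, 11 were called with age and 40 without the fold-change threshold (32 of them higher, against 19.4% of all genes and 9.56% higher). With AP, 0 of the 144 were called and 1 by DESeq2, and 0 to 3 with a mouse left out (0% to 2.1% of all genes). Between old + AP-treated and young mice, 10 were called and 33 without the threshold (17.8% of all genes). Without that threshold, the construction of the alternative gives the larger counts; the cause of the other changes was not tested. Of 200 correlations and measures of spread, 9 moved, all of them correlations with the immediate early score when group means were kept. The labels pair no mice, so no paired fit was made. Low counts limit *Hspa1a* and *Hspa1b* (51 to 444 counts per mouse), and shared sequence limits both as well as *Hspa8*, *Hsp90aa1*, *Hspb1* and *Hspd1*.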

Other observations

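Several of the 10 genes also varied with markers of plasma cells and of bone-forming cells, over the 41 mice with group means removed. Mice high in 8 plasma cell markers, of which the antibody joining chain gene *Igj* was the most abundant, were low in *Hsph1* (r = -0.68, rho -0.74, -0.63 without the 2 mice farthest from the median, -0.88 to -0.42 within groups, permutation p = 1e-05). The score was negatively correlated with 7 of the 10 genes and positively with 1, *Dnajb1* (r = 0.50, rho 0.57, 0.51 without 2 mice, 0.48 to 0.63 within groups, permutation p = 0.00079). The plasma cell list itself had 0 of 8 genes called with age and 0 of 8 with AP, with medians of -0.04 and 0.06 and with 0 and 2 genes at an unadjusted p under 0.05 in edgeR.

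Against 10 osteoblast markers, led by the collagen gene *Col1a2*, 4 of the 10 genes were negatively correlated and 0 positively. *Hspa8* had r = -0.48 (rho -0.58, -0.49 without 2 mice, -0.67 to -0.55 within groups, permutation p = 0.00157) and *Hspd1* had r = -0.42 (rho -0.47, -0.49 without 2 mice, -0.76 to -0.24 within groups, permutation p = 0.00592). *Hsp90aa1* had r = -0.45 (rho -0.34, adjusted p = 0.054 for rho). Against the immediate early score, 1 of the 10 genes passed, *Hspd1* (r = -0.37, rho -0.36, -0.31 without 2 mice, permutation p = 0.0168), with r = 0.17 in young, -0.64 in old + vehicle-treated and -0.43 in old + AP-treated mice. For *Hspa1a* the immediate early r was 0.16 over all mice and 0.60 in young, 0.16 in old + vehicle-treated and 0.00 in old + AP-treated mice. These marker lists share mice and libraries with the genes, and CPM values sum to nearly the same total in each mouse.

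Summed erythroid markers, led by *Slc4a1*, had medians of 1241 CPM in young, 888 in old + vehicle-treated and 1062 in old + AP-treated mice, with 0 of 8 genes called with age or with AP by edgeR (6 of 8 at an unadjusted p under 0.05 in each). Neutrophil, macrophage, osteoclast, adipocyte and endothelial lists, led by *S100a9*, *Csf1r*, *Mmp9*, *Fabp4* and *Pecam1*, had median log2 fold changes with age of 0.35, -0.07, 0.23, 0.47 and 0.15, with 0, 1, 0, 3 and 0 genes called. Of 9 osteocyte markers, led by *Dmp1*, 2 were called higher and 1 lower with age, and of the 10 osteoblast markers 3 were called lower.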
